A study of Mus musculus with 3 samples.

Results

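The 6 hippocampal receptor genes for acetylcholine described here are the muscarinic receptor genes Chrm1, Chrm2 and Chrm3 and the nicotinic subunit genes Chrna4, Chrna7 and Chrnb2. They were chosen by symbol, and all 6 were found among the 32285 genes of the count matrices. The data are nuclear RNA counts from the hippocampus of 3 adult female mice that carry 1 D allele of Scn8a (Scn8aD/+), a gene for a neuronal sodium channel. The allele is used as a mouse model of developmental and epileptic encephalopathy. The titles place all 3 mice after seizure onset. Each mouse gave 1 library and each library is a batch of its own, and animal and batch cannot be told apart. Control mice and mice before onset were not analysed here, so every comparison lies between classes of nuclei within the same animals, and none bears on the mutation.

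Acetylcholine reaches the hippocampus mainly from neurons of the medial septum and diagonal band. Muscarinic receptors are G-protein-coupled: the products of Chrm1 and Chrm3 act through Gq and phospholipase C, and can close the potassium channels of the Kcnq family, while the product of Chrm2 acts through Gi and Go, opens Kcnj potassium channels and restrains transmitter release from axon terminals. Nicotinic receptors are ligand-gated cation channels. Chrna7 subunits can form a receptor by themselves, whereas Chrna4 and Chrnb2 subunits assemble into a heteromeric receptor.

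After filters, 7890, 11816 and 4401 nuclei of mice 1, 2 and 3 remained, with a median of 8412, 1800.5 and 24859 UMIs. Nuclei were clustered without the receptor genes and named from marker genes, so each name stands for a likeness ("CA1-like"). Genes that overlap a receptor gene, such as 9330158H04Rik over Chrm2, were not left out of the clustering beforehand. Most granule-like and CA1-like nuclei of a mouse lay in clusters of their own. Of the CA1-like nuclei of mouse 3, 387 shared a cluster with 2 nuclei of mouse 1 and 2 of mouse 2. The library of mouse 2 was the shallowest and stood apart. There the 8 pan-glutamatergic markers reached, in oligodendrocyte-, OPC-, microglia- and astrocyte-like nuclei, 51.7% to 64.8% of their summed level in glutamatergic nuclei. The same share was 17.3% to 37.8% in mouse 1 and 17.9% to 45.6% in mouse 3. No pan-glutamatergic marker was at 0 in those classes. Cell barcodes shared between libraries numbered 36 for mice 1 and 2, 13 for mice 1 and 3 and 25 for mice 2 and 3. Levels below are CPM, the UMIs of a gene per 1000000 UMIs of a class, summed over the nuclei of a class in 1 mouse. Means carry the SD over mice.

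In GENCODE M21 on GRCm38, Chrm1 spans chr19:8663789-8683587 on the plus strand and Chrm2 spans chr6:36388084-36528414 on the plus strand. On the minus strand lie Chrm3 at chr13:9875486-10360847, Chrna4 at chr2:181018380-181043546, Chrna7 at chr7:63098692-63212569 and Chrnb2 at chr3:89746195-89764632. The gene bodies run from 18.4 kb for Chrnb2 to 485.4 kb for Chrm3. Chrm2 is overlapped on the opposite strand by 9330158H04Rik, Chrnb2 by Adar, and Chrm3 by Gm26861 and, on its own strand, by Gm47405 and Gm47404. Strand use in counting is not stated by the labels or headers, so reads of such pairs may not be told apart. All nuclei kept held 2770, 1287 and 6267 UMIs of Chrm2 in mice 1, 2 and 3, against 277, 155 and 326 UMIs of 9330158H04Rik. For Chrnb2 the weight was the other way, with 504, 328 and 602 UMIs against 7372, 3859 and 14052 UMIs of Adar.

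The start regions of Chrm2, Chrm3 and Chrna7, the 3 members called in the most comparisons below, are shown to place them beside those levels. Each runs from 250 bases before to 50 bases after the RefSeq transcript start on GRCm38.p6, on the strand of the gene. Promoter entries were matched for 5 of the 6 members, all except Chrm1. Capitals mark matches, on either strand, to GGGCGG (a GC box) or CACGTG (an E-box), from a search that also covered TGACGTCA (a cyclic AMP response element), TATAAA and CAGGTG.
Chrm2, chr6:36387834-36388133, plus strand: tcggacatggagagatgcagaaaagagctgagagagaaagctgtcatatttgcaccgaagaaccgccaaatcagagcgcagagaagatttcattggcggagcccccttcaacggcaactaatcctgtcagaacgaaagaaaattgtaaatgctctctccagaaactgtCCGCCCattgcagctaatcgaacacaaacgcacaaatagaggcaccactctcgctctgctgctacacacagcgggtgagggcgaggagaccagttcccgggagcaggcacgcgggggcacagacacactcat
Chrm3, chr13:10360754-10361053, minus strand: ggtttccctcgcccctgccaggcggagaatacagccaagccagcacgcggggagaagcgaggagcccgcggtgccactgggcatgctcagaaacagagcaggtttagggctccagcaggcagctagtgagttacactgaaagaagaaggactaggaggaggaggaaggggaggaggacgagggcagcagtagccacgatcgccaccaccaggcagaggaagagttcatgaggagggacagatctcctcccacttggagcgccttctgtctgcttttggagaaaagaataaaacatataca
Chrna7, chr7:63212477-63212776, minus strand: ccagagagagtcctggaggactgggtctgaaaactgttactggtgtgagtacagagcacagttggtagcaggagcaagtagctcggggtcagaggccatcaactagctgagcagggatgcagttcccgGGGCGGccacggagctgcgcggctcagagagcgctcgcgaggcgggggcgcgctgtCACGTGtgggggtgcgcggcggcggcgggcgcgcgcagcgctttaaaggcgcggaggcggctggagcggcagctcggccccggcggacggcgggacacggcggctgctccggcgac
The Chrm2 window holds 1 GC box in reverse complement at -82 from the start. The Chrna7 window holds a GC box at -122 and an E-box at -66. None of the 5 motifs was found in the Chrm3 window, which says only that those letters are not there. Among 27025 promoter windows of the same length, 35.9% hold the GC box and 7.24% the E-box, and the other motifs are in 1.88% (TGACGTCA), 14.2% (TATAAA) and 20.03% (CAGGTG). The GC content is 52.7% for Chrm2, 57.3% for Chrm3 and 70.0% for Chrna7, against a median of 52.7% over all windows. A match is a description of the letters and not a measured binding site.

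The 3 muscarinic genes differed in their order of classes, with some classes high in more than 1 of them. Chrm1 was highest in CA- and granule-like nuclei, Chrm2 was high in Pvalb-like, Sst-like and subicular or cortical glutamatergic nuclei, and Chrm3 was high in CA1-, CA3-, Sst-, Vip- and Cnr1-like nuclei and low in granule-like nuclei. Among neuron classes, Chrna7 had its highest means in Vip- and Lamp5-like nuclei, then near-equal ones in Sst- and CA2-like nuclei. Its mean in Pvalb-like nuclei was low. Chrna4 and Chrnb2 were sparse throughout. Levels of different genes were set side by side per kilobase of gene body, which assumes reads drawn along the whole gene; whether intronic reads were counted is not stated in the labels. On that scale Chrm1 and Chrm3 each reached 2.34 CPM per kb in CA1-like nuclei, where Chrna7 reached 1.01, Chrnb2 0.37 and Chrm2 and Chrna4 0.01 each. In Pvalb-like nuclei Chrm2 had 1.46, Chrm1 0.92 and Chrm3 0.69 CPM per kb, whereas in CPM not divided by length Chrm3 (335 ± 27.7) stood above Chrm2 (204 ± 67.6, n = 3 each).

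**Figure D1:**
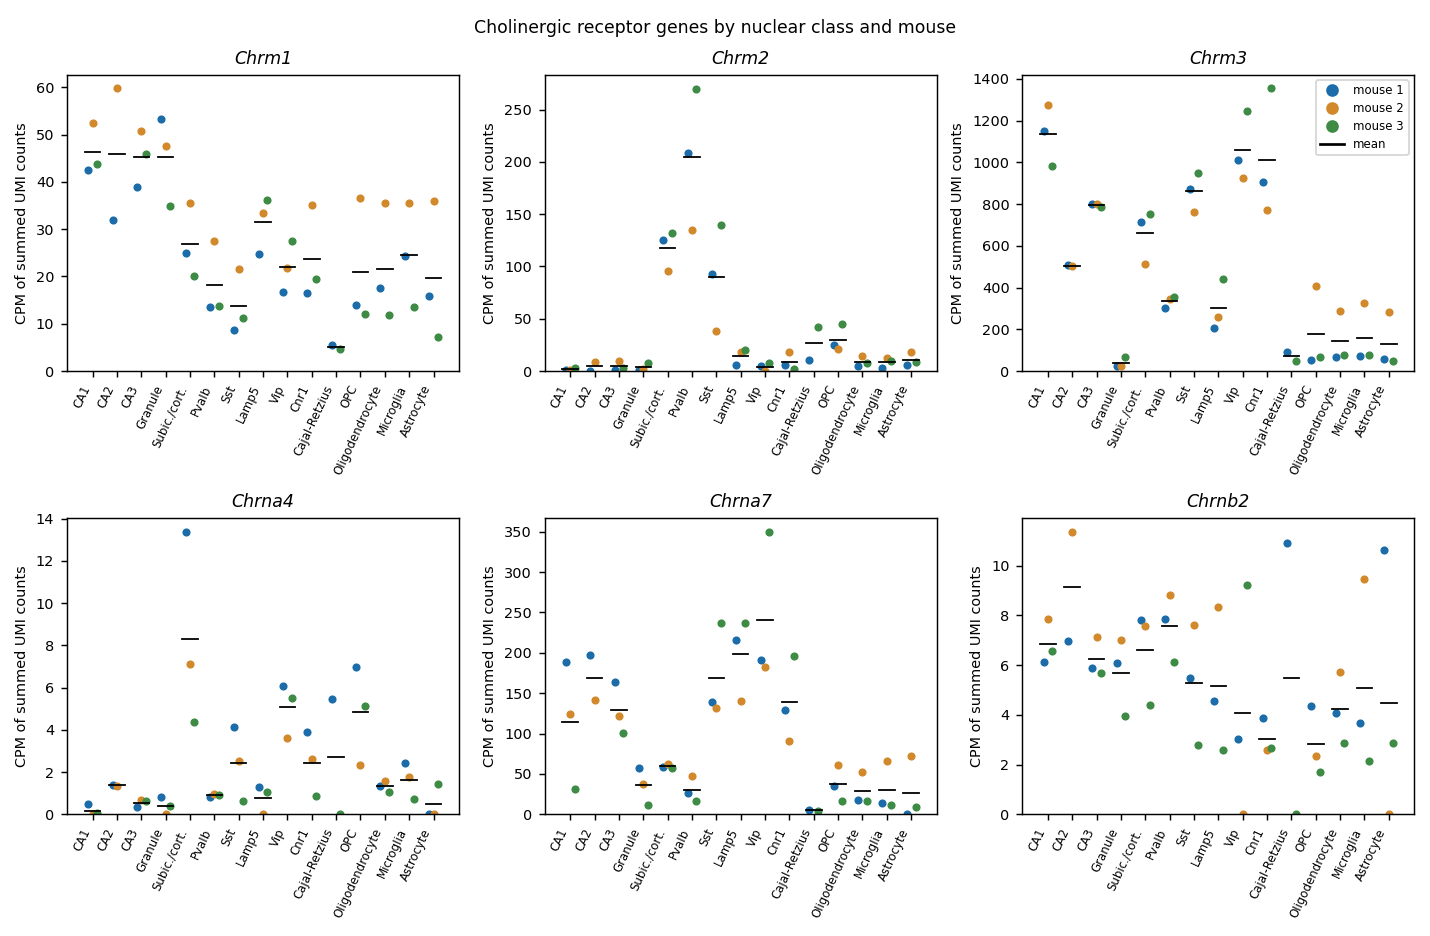
CPM of each receptor gene (vertical axes, linear, each with its own scale) in 15 classes of nuclei (horizontal axes). Points are mice with at least 20 nuclei of a class and black lines are means over mice. Chrm3 sits at 1152, 1277 and 981 CPM in CA1-like nuclei and at 25.4, 23.2 and 68.3 CPM in granule-like nuclei.

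Chrm1, the receptor gene best known from hippocampal principal cells, stood at 42.6, 52.5 and 43.7 CPM in CA1-like nuclei of mice 1, 2 and 3. In CA3-like nuclei it was at 38.9, 50.8 and 45.9 CPM, and in granule-like nuclei at 53.3, 47.6 and 34.9 CPM. The mouse values of these 3 classes overlapped, and with CA2-like nuclei (46.0 ± 19.8 CPM, n = 2) they took the first 4 places. The next class, Lamp5-like nuclei at 31.4 ± 6.0 CPM (n = 3), did not overlap with CA1- or CA3-like nuclei but did overlap with granule-like and CA2-like nuclei. Sst-like nuclei were the lowest inhibitory class with 13.8 ± 6.9 CPM (n = 3). Chrm1 reached 24.4, 35.5 and 13.5 CPM in microglia-like nuclei, and all glial classes were highest in mouse 2, at 35.5 to 36.5 CPM. The inhibitory classes ran from 8.68 to 36.2 CPM, and overlapped with the glial classes.

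Chrm2 had 208, 135 and 270 CPM in Pvalb-like nuclei, the named class with the highest mean. Subicular or cortical glutamatergic nuclei followed with 125, 95.8 and 132 CPM, all below every Pvalb-like value. Sst-like nuclei had 92.8, 38.1 and 140 CPM, which overlapped with the subicular or cortical values. In each mouse the order was Pvalb-like above Sst-like nuclei. CA1-like nuclei stood at the other end with 0.94, 0.87 and 3.08 CPM, and Vip-like nuclei had 4.55, 0.00 and 7.36 CPM. The Vip-like values rest on 3, 0 and 4 UMIs, and the exact 95% interval of the 0 reaches 13.4 CPM. OPC-like nuclei, the precursors of oligodendrocytes, had 24.5, 21.2 and 44.6 CPM and were the fourth class in order.

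Chrm3 had 1152, 1277 and 981 CPM in CA1-like nuclei. Vip-like nuclei had 1010, 927 and 1246 CPM and Cnr1-like nuclei 905, 774 and 1355 CPM, and neither was separated from CA1. Sst-like (861 ± 94.1 CPM) and CA3-like nuclei (796 ± 9.7 CPM, n = 3 each) came next, and Pvalb-like nuclei had 335 ± 27.7 CPM (n = 3). Granule-like nuclei took the last place with 25.4, 23.2 and 68.3 CPM. The glial classes divided by mouse. In mouse 2 they held 284 to 407 CPM, above the granule-like nuclei of any mouse, and in mice 1 and 3 they held 48.5 to 77.5 CPM.

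Chrna7 had 191, 182 and 350 CPM in Vip-like nuclei, 216, 141 and 237 CPM in Lamp5-like nuclei and 139, 132 and 236 CPM in Sst-like nuclei. These 3 classes overlapped. CA2-like nuclei had 197 and 141 CPM in mice 1 and 2, above the Sst-like nuclei of the same mouse. Mouse 3 had 1 CA2-like nucleus, so their mean (169 ± 39.3 CPM, n = 2) leaves it out. A mixed vascular class, left out of the order of 15 classes, had 194 CPM in mouse 1 (38 nuclei) and 107 CPM in mouse 3 (71 nuclei), and 610 CPM from 9 nuclei in mouse 2. Pvalb-like nuclei had 26.4, 48.0 and 16.5 CPM, in the range of microglia-like nuclei (13.4, 66.5 and 12.1 CPM). In the pyramidal and granule classes, mouse 3 was the lowest. CA1-like nuclei had 189, 124 and 31.1 CPM in mice 1, 2 and 3, granule-like nuclei 57.5, 38.1 and 11.5 CPM, and CA3-like nuclei 163, 122 and 101 CPM. In Sst-, Lamp5-, Vip- and Cnr1-like nuclei, mouse 3 was instead the highest. With 1 library a batch, this split cannot be assigned to the animal or to its library.

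Chrna4 averaged 8.29 ± 4.61 CPM (n = 3) in subicular or cortical glutamatergic nuclei, from 53, 15 and 27 UMIs, and no other class averaged more than 5.08 CPM. CA1-like nuclei held 7, 0 and 1 UMIs of it in all. Chrnb2 ranged from 2.82 ± 1.39 CPM in OPC-like nuclei to 9.16 ± 3.11 CPM in CA2-like nuclei (n = 3 and n = 2), and every neighbouring pair of classes in its order overlapped. Among 290, 435 and 209 subicular or cortical glutamatergic nuclei, UMIs of both Chrna4 and Chrnb2 were found in 2, 0 and 3 nuclei. At this depth the partner subunits could not be followed within nuclei.

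Neuron-like nuclei exceeded glia-like nuclei in 3 of the 6 genes. Chrm2 had 35.7, 29.8 and 52.0 CPM in neuron-like nuclei of mice 1, 2 and 3, against 7.26, 14.5 and 15.8 CPM in glia-like nuclei, and no values overlapped. The log2 fold change was 2.07 ± 0.33 (SE; edgeR adjusted p = 0.0224). Chrm3 had 582, 643 and 517 CPM in neuron-like nuclei, against 65.6, 318 and 69.4 CPM in glia-like nuclei, with a log2 fold change of 2.77 ± 0.61 (edgeR adjusted p = 0.0374). Chrna7 had 122, 106 and 60.1 CPM in neuron-like nuclei, against 19.0, 60.3 and 14.7 CPM in glia-like nuclei (log2 fold change 2.24 ± 0.46, edgeR adjusted p = 0.0342). Its ranges met, with 60.1 CPM in neuron-like nuclei of mouse 3 and 60.3 CPM in glia-like nuclei of mouse 2, while those of Chrm3 were apart. Mouse 2 had the highest glial values of Chrm3 and Chrna7, beside the raised glutamatergic marker share given above, and the part of that share in the result was not tested. Calls needed both a 2-fold difference and an adjusted p below 0.05, which 24.0% of 17706 genes tested met, 9.22% as higher in neuron-like nuclei. Chrm1 had 39.5 ± 5.3 CPM in neuron-like nuclei and 21.8 ± 12.5 CPM in glia-like nuclei (log2 fold change 1.38 ± 0.37, edgeR adjusted p = 0.0517), which missed the threshold. Without mouse 2 its log2 fold change was 1.84 with an edgeR adjusted p of 0.0022, and Chrnb2 (0.84, edgeR adjusted p = 0.146, with all mice) also passed, at 1.25 and 0.0400. Without mouse 2, Chrm2, Chrm3 and Chrna7 stood at log2 fold changes of 2.51, 3.53 and 2.86. Without mouse 1 and without mouse 3, edgeR called 0 genes of the whole table, these 6 included, while 4379 and 5266 genes had an unadjusted p under 0.05. After thinning to 1000 UMIs per nucleus, the call of Chrna7 was lost too.

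Inhibitory nuclei as a group had more Chrm2 and less Chrm1 than glutamatergic nuclei as a group. Chrm2 had 152, 69.6 and 194 CPM in inhibitory nuclei, against 20.2, 18.5 and 36.8 CPM in glutamatergic nuclei, without overlap (log2 fold change 2.29 ± 0.20, edgeR adjusted p = 0.0042). Inhibitory nuclei without a subtype name held 588, 88.4 and 658 CPM of Chrm2 in mice 1, 2 and 3. They gave 630, 280 and 828 of the 1355, 477 and 2207 Chrm2 UMIs of inhibitory nuclei, from 61, 552 and 27 nuclei. Not every inhibitory class was high in Chrm2. Lamp5-, Cnr1- and Vip-like nuclei had 14.5 ± 7.5, 8.59 ± 8.55 and 3.97 ± 3.72 CPM (n = 3 each). Subicular or cortical glutamatergic nuclei had 118 ± 19.1 CPM, and glutamatergic nuclei without a finer name 50.7 ± 32.8 CPM (n = 3 each). Chrm1 had 16.9, 30.9 and 20.1 CPM in inhibitory nuclei, against 41.6, 49.2 and 36.3 CPM in glutamatergic nuclei (log2 fold change -1.06 ± 0.15, edgeR adjusted p = 0.0099). That fold lay close to the 2-fold limit, and the call was lost without mouse 1 (-0.87), without the mouse block (-1.02), after thinning (-0.91) and with doublets kept (-0.96). The 2 called members stand against 14.6% of 16681 genes, 7.76% called higher and 6.80% called lower. Chrm3 (619 ± 90.3 CPM in inhibitory and 582 ± 84.9 CPM in glutamatergic nuclei) and Chrna7 (128 ± 28.6 and 93.2 ± 38.5 CPM, n = 3 each) did not pass, with edgeR adjusted p-values of 0.896 and 0.461.

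**Figure D2:**
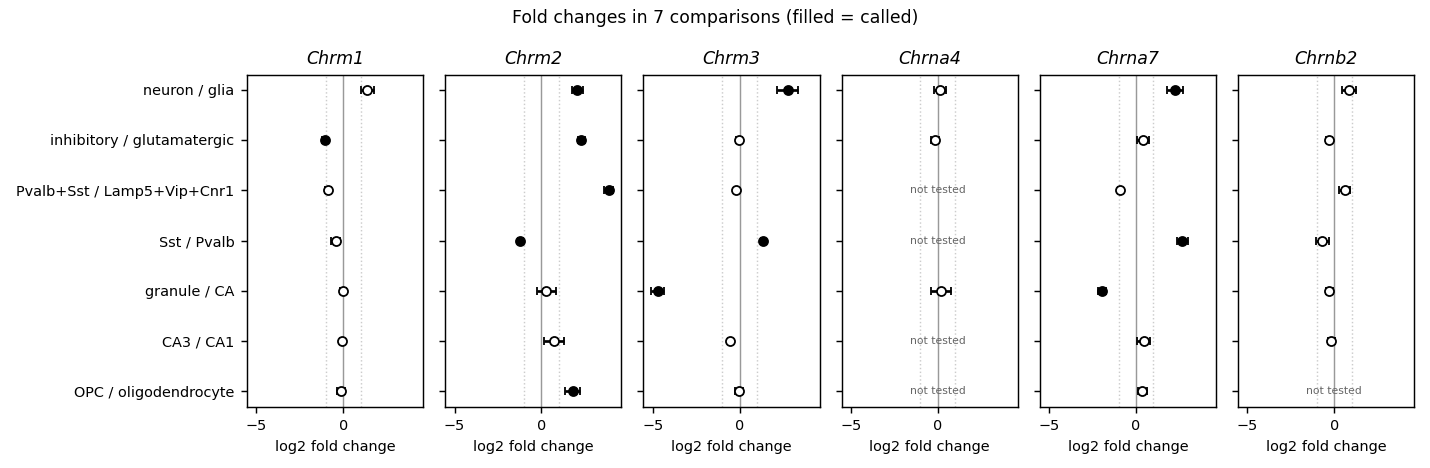
Log2 fold change (horizontal axes) of each receptor gene in 7 comparisons, first class over second class, with the SE as bars. Filled points passed an edgeR adjusted p under 0.05 and 2-fold, and dotted lines mark 2-fold. Chrm2 passed in 5 of the 7 comparisons, and its sign is negative in Sst-like against Pvalb-like nuclei alone.

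Among inhibitory nuclei, the Pvalb- and Sst-like classes were set against the Lamp5-, Vip- and Cnr1-like classes. Chrm2 had 153, 92.9 and 205 CPM in the Pvalb- and Sst-like nuclei, against 5.57, 15.4 and 12.2 CPM in the others, with a log2 fold change of 3.88 ± 0.28 (edgeR adjusted p = 1.14e-05). It was 1 called member against 7.47% of 12779 genes, 3.80% higher and 3.68% lower. Chrna7 went the other way and was under 2-fold, with 79.9, 84.6 and 126 CPM in the Pvalb- and Sst-like nuclei, against 183, 126 and 241 CPM in the others (log2 fold change -0.93 ± 0.12, edgeR adjusted p = 0.000562). Chrm1 did likewise (-0.88 ± 0.19, edgeR adjusted p = 0.0093). Without mouse 2 both passed 2-fold and were called, at -1.07 for Chrna7 and -1.08 for Chrm1, while without the mouse block their edgeR adjusted p-values were 0.395 and 0.387. Over the alternatives adjusted p ran from 4.3e-12 to 0.395 for Chrna7 and from 6.06e-05 to 0.387 for Chrm1, which also missed the threshold by DESeq2 (0.0796) and without mouse 3 (0.0604), as Chrna7 did after thinning (0.105). By adjusted p alone, 17.0% of genes passed. Chrm3 did not pass (-0.19 ± 0.10, edgeR adjusted p = 0.259). For Chrna7 the pooled Pvalb- and Sst-like classes were unlike each other. Pvalb-like nuclei had 26.4, 48.0 and 16.5 CPM and Sst-like nuclei 139, 132 and 236 CPM. The Sst-like values overlapped with those of the Lamp5-, Vip- and Cnr1-like group.

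The Sst- and Pvalb-like classes differed in 3 of the 5 members tested. Chrm3 had 873, 762 and 949 CPM in Sst-like nuclei, against 304, 345 and 357 CPM in Pvalb-like nuclei (log2 fold change 1.35 ± 0.11, edgeR adjusted p = 2.19e-05). Chrna7 had 139, 132 and 236 CPM in Sst-like nuclei, against 26.4, 48.0 and 16.5 CPM in Pvalb-like nuclei (2.67 ± 0.32, edgeR adjusted p = 0.000246). Neither gene overlapped between the classes. Chrm2 had 92.8, 38.1 and 140 CPM in Sst-like nuclei, against 208, 135 and 270 CPM in Pvalb-like nuclei (-1.21 ± 0.15, edgeR adjusted p = 0.000273), where the ranges overlapped across mice although Sst-like nuclei were lower in 3 of 3 mice. The background was 6.16% of 11697 genes, 3.19% higher and 2.98% lower in Sst-like nuclei. Without the mouse block the call of Chrm2 was lost at an edgeR adjusted p of 0.604 and that of Chrm3 at 0.0712, and with each library clustered alone Chrm2 stood at -0.996 with an edgeR adjusted p of 0.0921. Without mouse 1, Chrna7 was at 2.81 with an edgeR adjusted p of 0.0529. Both classes were built from clusters that held the mice unevenly. Sst-like nuclei held the 7 pan-inhibitory markers at 28.3%, 28.8% and 39.2% of their summed level in all inhibitory nuclei. Pvalb-like nuclei held them at 124%, 157% and 125%. Within Pvalb-like nuclei of mouse 1, Chrm2 ran from 18.2 CPM in a cluster led by Tac1 and Cemip to 296 CPM in a cluster led by Tll1 and Agbl1.

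Granule-like nuclei, named for the principal cells of the dentate gyrus, had less Chrm3 and less Chrna7 than the CA1-, CA2- and CA3-like nuclei as a group. Chrm3 had 25.4, 23.2 and 68.3 CPM in granule-like nuclei, against 992, 899 and 874 CPM in CA nuclei, a log2 fold change of -4.70 ± 0.37 (edgeR adjusted p = 0.000341). Chrna7 had 57.5, 38.1 and 11.5 CPM in granule-like nuclei, against 181, 127 and 68.9 CPM in CA nuclei (-1.97 ± 0.21, edgeR adjusted p = 0.0011). Both ranges were apart and both calls were kept in each of 9 alternative settings. Granule-like nuclei held the 8 pan-glutamatergic markers at 91.1%, 73.6% and 42.2% of their summed level in glutamatergic nuclei. The 42.2% of mouse 3 lay below the 45.6% of its microglia-like nuclei, and the part of this in the fold changes was not tested. Among 16293 genes, 18.5% were called. Chrm1 did not separate the classes, with 45.3 ± 9.4 CPM in granule-like and 46.3 ± 6.5 CPM in CA nuclei (-0.02 ± 0.17, edgeR adjusted p = 0.942). Chrm2, Chrna4 and Chrnb2 also missed the threshold.

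CA3-like against CA1-like nuclei gave 0 called members by edgeR, where 10.5% of 14924 genes were called, 6.57% higher and 3.95% lower. Chrm3 passed on p alone with 801, 802 and 785 CPM in CA3-like nuclei, against 1152, 1277 and 981 CPM in CA1-like nuclei (log2 fold change -0.54 ± 0.12, edgeR adjusted p = 0.0228), and it was the 1 member with an unadjusted p under 0.05. DESeq2 also called 0 members. By adjusted p alone 18.4% of genes passed. Over the alternatives Chrm3 lay between -0.70 and -0.12, with adjusted p-values from 0.0025 to 0.700. Chrna7 had 163, 122 and 101 CPM in CA3-like nuclei, against 189, 124 and 31.1 CPM in CA1-like nuclei, and mouse 3 alone was higher in CA3. In mouse 2, 163 CA1-like nuclei had a median of 19788 UMIs and 559 CA3-like nuclei a median of 3788. With each library clustered alone, CA1-like nuclei of mouse 2 numbered 764. CA3-like nuclei of mouse 3 then numbered 77, against 313 when clustered together. The part of depth and class membership in this comparison was not tested.

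OPC-like nuclei had more Chrm2 than oligodendrocyte-like nuclei, with 24.5, 21.2 and 44.6 CPM against 5.05, 14.6 and 7.51 CPM (log2 fold change 1.80 ± 0.44, edgeR adjusted p = 0.0471). It was 1 called member of 4 tested, against 15.4% of 12478 genes, 8.16% higher and 7.28% lower, and 16.7% by adjusted p alone. The counts were small, with 28, 18 and 78 UMIs in OPC-like nuclei. The call was lost without mouse 1 (edgeR adjusted p = 0.0696), without mouse 3 (0.25) and without the mouse block (0.0556). OPC-like nuclei also held pan-inhibitory markers at 44.6%, 42.6% and 55.2% of their level in inhibitory nuclei, against 24.2%, 25.6% and 24.9% in oligodendrocyte-like nuclei, and the part of that difference in the Chrm2 result was not tested. Of these 7 markers, 1, 0 and 1 were at 0 in OPC-like nuclei of mice 1, 2 and 3. Sst-like nuclei, an inhibitory class, held these markers at 28.3%, 28.8% and 39.2%, below OPC-like nuclei in each mouse.

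Since nuclei of mouse 3 carried many more UMIs than those of mouse 2, shares of nuclei with a UMI were compared after thinning each nucleus to 1000 UMIs, which left out shallower nuclei. Chrm3 was seen in 63.7%, 66.9% and 57.0% of CA1-like nuclei, in 2.07%, 3.00% and 6.21% of granule-like nuclei and in 6.59%, 25.9% and 6.28% of microglia-like nuclei of mice 1, 2 and 3. Before thinning these shares were 97.2%, 95.1% and 99.2% in CA1-like, 17.9%, 22.5% and 52.0% in granule-like and 16.8%, 39.9% and 38.6% in microglia-like nuclei. With the microglia-like share as the background, the granule-like share after thinning was at or below it in each mouse. Chrm2 was seen in 17.6%, 9.48% and 22.2% of Pvalb-like nuclei (65.6%, 21.2% and 58.3% before thinning), against 0.165%, 1.38% and 1.45% of microglia-like nuclei (0.654%, 2.64% and 5.80%). Chrna7 was seen in 0 of 131, 12 of 232 and 0 of 72 thinned Pvalb-like nuclei. The exact 95% intervals reach 2.78% in mouse 1 and 4.99% in mouse 3, and the 5.17% in mouse 2 lies under the 6.04% of its microglia-like nuclei. In Sst-like nuclei Chrna7 was seen in 16.3%, 10.7% and 14.1%. Before thinning, Chrna7 was seen in 21.4%, 11.4% and 25.0% of Pvalb-like and 56.6%, 23.3% and 53.8% of Sst-like nuclei, against 2.78%, 12.7% and 7.25% of microglia-like nuclei, so the Pvalb-like share was above the microglia-like one in mice 1 and 3.

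**Figure D3:**
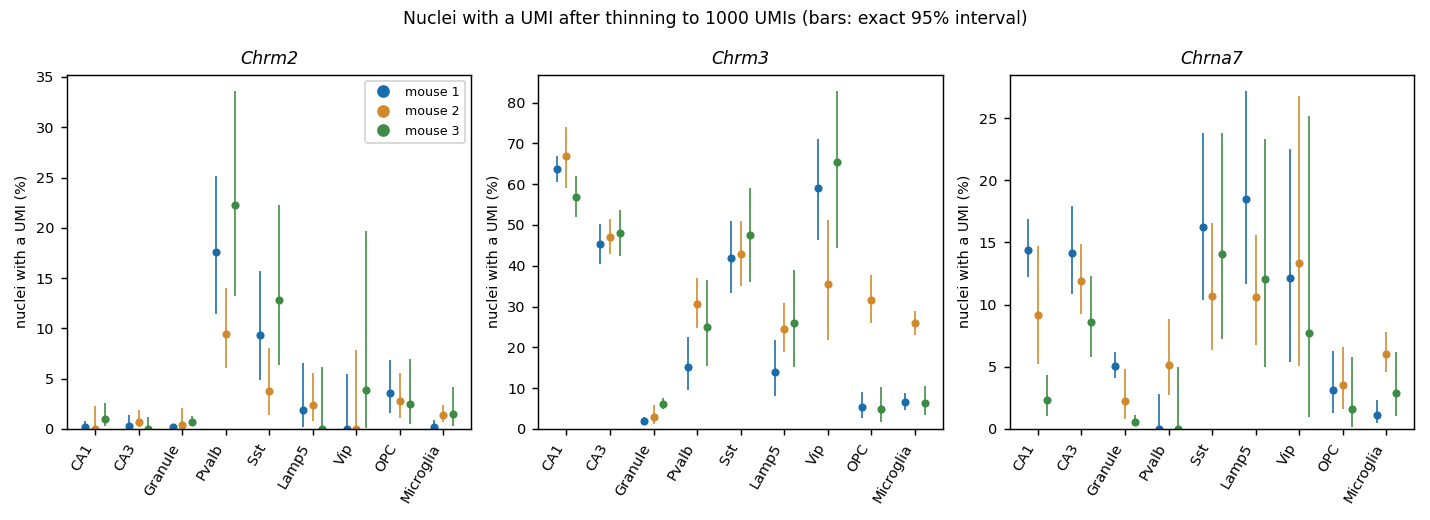
Percent of nuclei with at least 1 UMI (vertical axes) of Chrm2, Chrm3 and Chrna7 by class (horizontal axes) and mouse, after thinning to 1000 UMIs. Bars are exact 95% intervals and cover counting error only. Granule-like nuclei lie at 2.07% to 6.21% for Chrm3, no higher than the microglia-like nuclei of the same mouse.

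Within the classes, Chrm2 differed between clusters, which are described without a test since clusters come from the same counts. A group of inhibitory nuclei that took no subtype name was led by Ntng1, Adgrg6, 9330158H04Rik and Stk32b. It had 1051 CPM of Chrm2 in mouse 1 (29 nuclei) and 341 CPM in mouse 2 (93 nuclei), while mouse 3 had only 16 nuclei there. Chrm2 and its antisense partner 9330158H04Rik were both among its 10 leading genes. In Pvalb-like nuclei 9330158H04Rik stood at 22.7, 21.5 and 9.47 CPM, below Chrm2 in each mouse. A glutamatergic cluster led by Pdzrn3, Cux2 and Gpc6 had 199, 195 and 461 CPM of Chrm2 in mice 1, 2 and 3. A subicular or cortical cluster led by Kcnip1, Kcnh8 and Vwc2l had 213, 243 and 237 CPM, the most even of these groups over the 3 mice. For Chrna7, a glutamatergic cluster led by Gm32647, Col18a1 and Piezo2 was the highest in mice 1 and 2 with 469 and 330 CPM, and had 224 CPM in mouse 3.

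**Figure D4:**
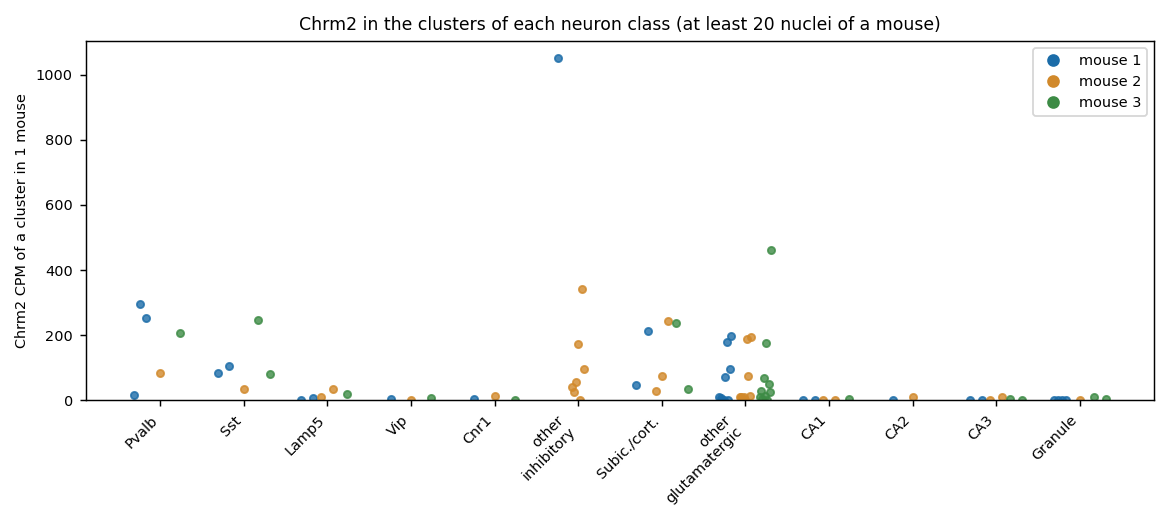
Chrm2 CPM (vertical axis, linear) of each cluster in 1 mouse, for clusters with at least 20 nuclei of that mouse, grouped by neuron class (horizontal axis). The highest points are 1051 and 341 CPM in an inhibitory cluster without a subtype name and 461 CPM in a glutamatergic cluster, while CA1-, CA2-, CA3- and granule-like clusters lie near 0.

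The genes whose levels were most like each member were ranked by the correlation of log2(CPM + 1) over 51 sums of 18 classes by mouse, among 14125 genes, as a description. Chrm1 was most like Camkv (r = 0.82), Gm41505 (0.80) and Kcnj6 (0.80). Gm41505 is annotated over Kcnj6 on the opposite strand, so these 2 genes share a locus. Chrm2 was most like its antisense partner 9330158H04Rik (0.84), Coro6 (0.78) and Dpp10 (0.74). Chrm3 was most like 4930447C04Rik (0.89), Gm47405 (0.88), which lies within the Chrm3 gene, and Etl4 (0.88). Chrna7 was most like 2810032G03Rik (0.86), 4930590L20Rik (0.80) and Rapgef4os1 (0.78). Chrna4 and Chrnb2 reached at most 0.69 (Cntn6) and 0.71 (Pkd2l2). Between members the closest pair was Chrm3 and Chrna7 (r = 0.72). The sums of a mouse share a library and depth.

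The downstream side of the muscarinic receptors was read from a list of 22 transducers and effectors. Granule-like against CA nuclei gave calls for 7 of 21 tested, 3 higher and 4 lower, where 18.5% of all genes were called, 6.21% higher and 12.3% lower. Kcnq5, a channel subunit of the current that Chrm1 and Chrm3 receptors suppress, had 69.9 ± 5.6 CPM in granule-like and 2180 ± 220.1 CPM in CA nuclei (log2 fold change -4.94, n = 3 each). Itpr1, the calcium release channel downstream of phospholipase C, had 32.0 ± 8.2 CPM in granule-like and 234 ± 64.3 CPM in CA nuclei (-2.84). Gnai1, an inhibitory G protein subunit, also fell (-1.91). Plcb4 (2.37), Kcnj9 (1.99) and Kcnj3 (1.21), the last pair subunits of channels that Chrm2 receptors open, rose. The list median was -0.06, beside -0.01 over all genes tested.

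In inhibitory against glutamatergic nuclei, 6 of the 22 transducers and effectors were called, beside 14.6% of all genes. Gna14, a G protein of the Gq family, rose with 9.47 ± 6.78 CPM in inhibitory and 0.39 ± 0.20 CPM in glutamatergic nuclei (log2 fold change 4.45, n = 3 each). Plcb4 (2.42), Arrb1 (1.52) and Grk5 (1.24) rose too, the last pair a regulator and a kinase of G-protein-coupled receptors. Rgs4 (-1.30) and Kcnj6 (-1.05) fell. Gna14 also rose in Pvalb- and Sst-like against the other inhibitory nuclei (5.30), where Kcnq5 fell (-2.0) and 2 of 21 were called in all, beside 7.47% of all genes. Kcnj3 was the 1 called gene of 21 in Sst- against Pvalb-like nuclei (-1.41), beside 6.16% of all genes. CA3-like nuclei had more Kcnq5 (3540 ± 569 CPM) than CA1-like nuclei (706 ± 102 CPM, log2 fold change 2.29), and less Itpr1 (-2.05), the 2 called of 20, beside 10.5% of all genes. In neuron- against glia-like nuclei 6 of 22 were called, a share near the 24.0% of all genes, with Kcnq5 (2.10) and Itpr1 (1.44) among those higher and Plcb3 (-2.91), Gnai2 (-2.07) and Arrb2 (-1.30) lower. OPC- against oligodendrocyte-like nuclei had 3 of 20, a share near the 15.4% of all genes, with Grk5 (1.73) and Arrb1 (1.69) higher and Gnao1 (-1.67) lower.

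The 8 chaperones and prototoxins, small membrane-anchored relatives of snake toxins that modulate nicotinic receptors, included a pair that was higher in inhibitory nuclei. Lypd6 had 35.4 ± 13.2 CPM in inhibitory and 1.34 ± 1.02 CPM in glutamatergic nuclei (log2 fold change 4.93), and Lypd6b 54.3 ± 17.8 and 1.84 ± 0.58 CPM (4.83, n = 3 each). Together with Ly6e, which fell (-1.23), they were the 3 called of 8, beside 14.6% of all genes. Within inhibitory nuclei both were higher in the Pvalb- and Sst-like group (3.87 for Lypd6 and 2.92 for Lypd6b), and Lypd1 was lower (-2.67), again 3 of 8, beside 7.47% of all genes. Lypd6b was also higher in Sst- than in Pvalb-like nuclei (1.43), the 1 called of 7, beside 6.16% of all genes. Ric3, a chaperone for the assembly of Chrna7 receptors, was tested in all 7 comparisons and called in none, with log2 fold changes from -0.31 to 0.61. Ly6e (1.58) and Ly6h (1.01) rose in CA3- against CA1-like nuclei, 2 of 6 beside 10.5% of all genes. Ly6e (-2.07) and Lynx1 (-1.18) fell in granule-like against CA nuclei, 2 of 8 beside 18.5% of all genes. Lynx1 rose (1.33) and Lypd6 fell (-1.89) in neuron- against glia-like nuclei, 2 of 8, a share near the 24.0% of all genes. In OPC- against oligodendrocyte-like nuclei 0 of 8 were called by edgeR, beside 15.4% of all genes. There 3 of the 8 had an unadjusted p under 0.05 and DESeq2 called 1, Lypd6.

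Among the 15 other receptor subunit genes, at most 4 had enough counts to be tested in a comparison. Chrna5, the accessory nicotinic subunit, had 25.7, 30.8 and 18.0 CPM in subicular or cortical glutamatergic nuclei and 6.25, 7.58 and 3.15 CPM in CA1-like nuclei. It was lower in CA3-like than in CA1-like nuclei (log2 fold change -3.83, the 1 called of 3, beside 10.5% of all genes), in granule-like than in CA nuclei (-3.29) and in inhibitory than in glutamatergic nuclei (-2.32, the 1 called of 3, beside 14.6%), and higher in neuron- than in glia-like nuclei (2.14, the 1 called of 4, near the 24.0% of all genes). Chrna9 was the other called gene of 4 in granule-like against CA nuclei (-2.42), beside 18.5% of all genes. Chrm4 and Chrm5 had 39 and 44 UMIs over all named nuclei, and Chrna6, Chrnb4 and Chrnd had 4 or fewer.

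The 7 genes of acetylcholine synthesis, transport and breakdown had 4 with enough counts for OPC- against oligodendrocyte-like nuclei. Slc5a7, the high-affinity choline transporter, had 19.3, 18.9 and 17.7 CPM in OPC-like nuclei and 0.17 ± 0.16 CPM in oligodendrocyte-like nuclei (log2 fold change 6.44, edgeR adjusted p = 0.0072). It had 131 UMIs over all named nuclei. In oligodendrocyte-like nuclei of mice 1, 2 and 3, a count of 3 UMIs stands at 0.58, 0.95 and 0.78 CPM. The mean there lies below these levels, so the size of the fold is uncertain. Prima1, the membrane anchor of acetylcholinesterase, had 4.96 ± 2.93 CPM in OPC-like and 103 ± 50.6 CPM in oligodendrocyte-like nuclei (-4.42), and Bche, which encodes butyrylcholinesterase, 3.88 ± 0.72 and 46.1 ± 17.3 CPM (-3.61, n = 3 each). With Ache (1.26), all 4 genes tested were called there, beside 15.4% of all genes. In neuron- against glia-like nuclei 3 of 4 were called, beside 24.0% of all genes, and all were lower: Prima1 (-5.13), Slc5a7 (-3.15) and Bche (-2.06). Without mouse 3, edgeR called 0 genes of the whole table in either comparison, with 2600 and 5266 genes at an unadjusted p under 0.05, and without mouse 1 it called 0 in neuron- against glia-like nuclei (4379 at an unadjusted p under 0.05). Ache (-1.08) and Bche (-1.0), the 2 tested in granule-like against CA nuclei, both fell, beside 18.5% of all genes called. Prima1 (3.24) and Bche (1.88) were higher in Sst- than in Pvalb-like nuclei, 2 of 3 beside 6.16% of all genes, and Prima1 was higher in inhibitory than in glutamatergic nuclei (1.73, 1 of 3 beside 14.6%). In Pvalb- and Sst-like against the other inhibitory nuclei, and in CA3- against CA1-like nuclei, 0 of 2 genes tested were called by edgeR or DESeq2. Of all genes, edgeR called 7.47% and 10.5% in these comparisons. In both, 0 of the 2 genes had an unadjusted p under 0.05.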

How the data were processed

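Nuclei sorted by propidium iodide were sequenced with the 10x method. The deposited values are raw UMI counts per gene and nucleus, made by the authors with Cell Ranger 7.0.0 (mice 1 and 2) and 7.1.0 (mouse 3) per the file headers, on mm10 per the submitters' processing notes. Intron and strand counting are not given in the sources used here. Filters removed nuclei under 500 genes or above 5% mitochondrial UMIs. Scrublet doublets were removed by its automatic threshold in mice 1 and 3. In mouse 2 that threshold called 0, so the top scores were removed at the expected rate of 0.8% per 1000 nuclei, a choice made after this was seen. Clustering (scanpy 1.11.5, leidenalg 0.10.2, resolution 1.5) left out the receptor genes and pathway lists. A cluster was named from at least 3 markers at 2-fold, with scoring adjusted after clusters were seen. UMI counts were summed per class and mouse and tested with edgeR 4.0.16 (quasi-likelihood, TMM, Benjamini-Hochberg over all genes) with mouse as a block, since both classes come from the same animal. Deviations of paired sums correlated at 0.0672 to 0.732. DESeq2 1.42.0 was an alternative. A class level needed 20 nuclei. SEs were derived from fold change and F. Genes named are the 6 members, their 3 most similar genes and called genes of the 4 lists, of which 1 is not reported here. Members and lists were chosen with earlier results of these data known. Intervals cover counting error only.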

Additional observations from a re-analysis of the deposited data

Results flagged for a closer look

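Nuclei that took no class name entered no comparison, and the receptor genes were detected there above the limit that a count of 0 allows. The largest such cluster, with a median of 917 UMIs, was led by Snhg9, Chchd2 and Rps29. In the 291 unnamed nuclei of mouse 1, Chrm1 had 72.6 CPM, Chrm2 30.7 CPM, Chrm3 232 CPM, Chrna7 89.4 CPM and Chrnb2 19.6 CPM. In the 3789 unnamed nuclei of mouse 2, Chrm1 had 52.2 CPM, Chrm2 30.0 CPM, Chrm3 514 CPM, Chrna4 2.13 CPM, Chrna7 79.3 CPM and Chrnb2 9.10 CPM. Mouse 3 had 1 unnamed nucleus. Groups of 3 mice were not tested for a sample far from the others.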

How the results depend on the processing

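Of the 12 member results called, 12 were still called by DESeq2, 12 without the filter on low counts, 6 without mouse 1, 12 without mouse 2, 8 without mouse 3, 8 without the mouse block, 11 with each library clustered alone, 10 after thinning and 11 with doublets kept, and none of the 12 changed sign in these settings. Of the uncalled, 1 became called by DESeq2, 1 without the filter, 1 with libraries clustered alone and 1 with doublets kept, each being Chrm1 in neuron- against glia-like nuclei, and 4 without mouse 2 (Chrm1 and Chrnb2 there, Chrm1 and Chrna7 in Pvalb- and Sst-like against other inhibitory nuclei). Chrna4 in OPC- against oligodendrocyte-like nuclei, not tested with all mice, was called without mouse 2 (2.27, edgeR adjusted p = 0.0282). Genes called in all numbered 4245 for neuron- against glia-like nuclei (0 to 6813 with 1 mouse left out, 2273 thinned), 2428 for inhibitory against glutamatergic (382 to 2753, 906 thinned), 955 for Pvalb- and Sst-like against other inhibitory (831 to 1208, 249 thinned), 721 for Sst- against Pvalb-like (372 to 764, 151 thinned), 3011 for granule-like against CA (2433 to 2889, 1261 thinned), 1570 for CA3- against CA1-like (1240 to 1360, 458 thinned) and 1927 for OPC- against oligodendrocyte-like (0 to 3232, 1115 thinned). The 0 for OPC- against oligodendrocyte-like nuclei, without mouse 3, stands beside 2600 genes at an unadjusted p under 0.05 by edgeR. Thinning leaves fewer genes to test, and the cause of the other shifts was not tested. Without the replicate block, 1210, 344, 170, 1829 and 495 genes were called in the second to sixth of these comparisons, and the block changed the call of Chrm1 (inhibitory), Chrm2 (Sst, OPC) and Chrm3 (Sst) as given above, and no other member call. Signs of uncalled log2 fold changes turned as follows. For granule-like against CA, Chrm1 was 0.0021 by DESeq2, 0.078 thinned and -0.23 to 0.17 with 1 mouse left out (0.021 without mouse 2), Chrm2 -0.66 (without mouse 3) to 0.88 with 1 mouse left out and Chrna4 -0.12 by DESeq2. For OPC- against oligodendrocyte-like, Chrm1 was 0.032 without mouse 1 and 0.062 with doublets kept, Chrm3 -0.27 to 0.16 with 1 mouse left out (0.12 without mouse 3), 0.23 without the block, 0.027 with libraries clustered alone and 0.44 with doublets kept, and Chrna7 -0.0056 thinned. For inhibitory against glutamatergic, Chrm3 was -0.25 to 0.12 with 1 mouse left out (0.047 without mouse 1), 0.0061 without the block and 0.15 thinned, Chrna7 -0.15 (without mouse 3) to 0.71 and Chrnb2 0.34 thinned. For CA3- against CA1-like, Chrm2 was -0.077 (without mouse 2) to 0.86 and Chrna7 -0.18 (without mouse 3) to 0.82, and Chrna4 in neuron- against glia-like was -0.036 without mouse 1. Of 108 mean levels, 35 moved by over 1 SD on thinning and 13 with libraries clustered alone. CA1-like nuclei held 7, 0 and 1 UMIs of Chrna4 in mice 1, 2 and 3, so its level there could not be compared between mice at this depth.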

Other observations

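Genes that make or take up acetylcholine precursors were found in few nuclei. Chat, the acetylcholine-synthesising enzyme, had 20 UMIs over all named nuclei, of which 6, 0 and 8 lay in Vip-like nuclei of mice 1, 2 and 3. Slc5a7 had 28.8, 7.27 and 29.5 CPM in the same nuclei, from 19, 2 and 16 UMIs. Slc18a3, the vesicular acetylcholine transporter, had 4 UMIs in all.

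Chrna2, a subunit gene known from interneurons of the stratum oriens, had 31 UMIs over all named nuclei, with 6, 1 and 8 in Sst-like nuclei. Chrna9 had 3.20, 8.89 and 5.57 CPM in Sst-like nuclei and 3.22, 3.56 and 9.95 CPM in glutamatergic nuclei without a finer name.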
